A study of Gallus gallus with 8 samples.

Results

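The DUSP MAP kinase phosphatases were followed across chick otic, lateral and trigeminal ectoderm on microarrays. The set was given by name as 8 genes, DUSP1, DUSP2, DUSP4, DUSP5, DUSP6, DUSP7, DUSP10 and DUSP16, and every probe set that the platform annotation assigns to one of these symbols was taken. The annotation gave 15 such probe sets for 7 of the 8 genes, out of 38439 non-control probe sets and 13009 genes. No probe set carried the symbol DUSP2, which was not analysed here.

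These enzymes remove phosphate from both the threonine and the tyrosine of the activation loop of a MAP kinase and so switch the kinase off. FGF receptors signal through RAS, RAF and MEK to the MAP kinase ERK, and several DUSP genes are themselves switched on by that signal, which makes them part of a negative feedback loop. DUSP6 and DUSP7 act in the cytoplasm and prefer ERK. DUSP1, DUSP2, DUSP4 and DUSP5 are nuclear and are induced rapidly by growth factors, with DUSP5 acting on ERK alone. DUSP10 and DUSP16 prefer the stress-activated kinases JNK and p38. In vertebrate embryos, DUSP6 transcripts are widely used to mark tissue that is receiving an FGF signal, and FGF signaling is required to induce the otic placode, the thickened ectoderm that forms the inner ear.

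There were 4 groups of 2 arrays each. Otic ectoderm and the more lateral ectoderm of the same axial level were dissected fresh at stage 10. Presumptive trigeminal ectoderm, which would normally form a sensory ganglion placode, was taken at stage 8 and cultured for 18 h in collagen gels in DMEM/F12 with N2 supplements, either with 50 ng/ml FGF2 or without FGF2. The labels name no strain or genotype, and each replicate was RNA from many pooled pieces of ectoderm, amplified in 2 cycles. Lateral ectoderm is described as presumptive epidermis with some epibranchial placode progenitors, so it is not a tissue without placode cells. Otic and lateral ectoderm were not cultured, so stage, culture and region cannot be told apart where a fresh tissue is set against a cultured one.

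The values are array intensities, with a median between 25.6 and 31.7 over all probe sets of an array, and replicates of a group correlated at 0.914 to 0.933 on the log2 scale. The label of otic ectoderm was borne out by otic placode markers, since 6 of 6 measured markers of the list were higher than in lateral ectoderm, with a median log2 difference of 4.10. Only 2 of 5 trigeminal placode markers were measured, so that label could not be checked this way. The otic and lateral pools also differed in other cell markers. Summed over 9 endothelium and blood markers, the intensity was 2234 and 2425 for the otic pools and 4679 and 6173 for the lateral pools, with 5 of the 9 called lower in otic ectoderm and none called higher. Over 7 mesenchyme markers it was 2170 and 3917 for the otic pools and 6561 and 8149 for the lateral pools, with 1 marker called higher and 1 lower. Over 7 epidermis markers it was 783 and 1431 for the otic pools and 2659 and 4961 for the lateral pools, with 5 called lower. Between the cultures, the sum over 6 neural tube markers was 2862 and 2761 with FGF2 and 3925 and 4785 without FGF2, although 2 of the 6 were called higher with FGF2, none lower, and their median log2 difference was 0.72. Over the 9 endothelium and blood markers the sum was 555 and 578 with FGF2 and 445 and 374 without FGF2. Of these 1 was called higher and none lower, with a median of 0.97. Of the 6 otic placode markers 3 were called higher with FGF2 and none lower, with a median of 1.48. Their sum was 4086 and 4845 with FGF2 and 3977 and 3836 without FGF2. Also called higher were 1 of 2 trigeminal placode and 1 of 7 mesenchyme markers, with none lower. No epidermis or neural crest marker was called. The part of these cell types in the results below was not tested, and in pooled tissue fewer cells of a type and less RNA per cell cannot be told apart.

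A gene was called when its fold change was above 2 and limma's unadjusted p was under 0.05, the rule behind every count given here, and each gene was represented by its brightest probe set. In otic against lateral ectoderm 2 of 7 DUSP genes, DUSP6 and DUSP4, were called higher and none lower, where 4.86% of all genes were called higher and 2.64% lower. In FGF2-treated against untreated trigeminal ectoderm 3 of 7, DUSP6, DUSP4 and DUSP5, were called higher and none lower, where 2.14% of all genes were called higher and 1.48% lower. No call in these comparisons passed an adjusted threshold, here or elsewhere on the array. The smallest Benjamini-Hochberg adjusted p of limma over all probe sets was 0.201 for otic against lateral and 0.281 for FGF2 against no FGF2, with 3168 and 2020 probe sets under an unadjusted p of 0.05.

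**Figure D1:**
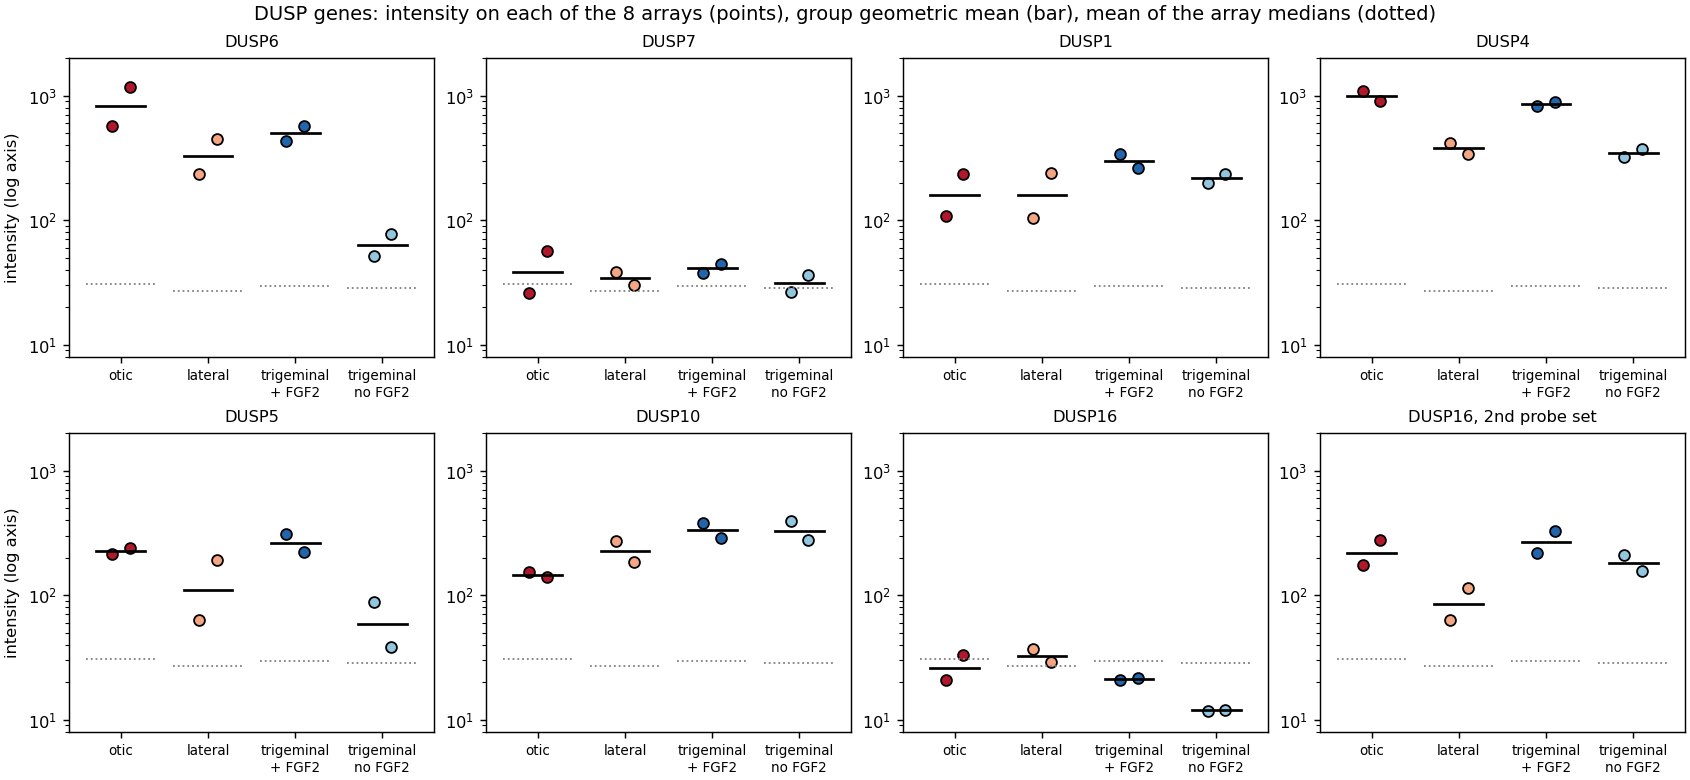
Intensity (log axis) of the brightest probe set of each of the 7 measured DUSP genes, and of a further probe set for DUSP16, on each of the 8 arrays by group. Points are arrays, black bars are geometric means of a group and dotted lines are the mean of the array medians. DUSP6 was lowest in untreated trigeminal ectoderm, and both otic and both FGF2-treated arrays of DUSP4 lay above all lateral and untreated arrays.

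Among the cytoplasmic, ERK-selective phosphatases, DUSP6 showed the widest range over the arrays. Its single probe set read 573.4 and 1170.8 on the otic arrays, against 235.1 and 448.1 on the lateral arrays. It read 434.6 and 566.3 in trigeminal ectoderm with FGF2, against 51.8 and 76.8 without FGF2. Neither pair of groups overlapped. With 2 arrays a group a lack of overlap says little alone, and its share over all genes was not counted. The otic replicates lay further from each other than the nearest otic and lateral arrays did, and so did the lateral replicates, whereas the cultures were far apart. In all 4 groups replicate 2 read higher than replicate 1.

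The DUSP6 log2 difference between otic and lateral ectoderm was 1.34 ± 0.53 (SE), or 2.52-fold, with a 95% interval of 0.04 to 2.63 and a limma adjusted p of 0.587. The unadjusted p of 0.0446 was close to the limit, and the call was lost in 8 of 16 alternatives and kept in the other 8. Limma's unadjusted p was 0.0122 with a variance trend and 0.0129 with a replicate block. Without otic replicate 1 the log2 difference was 1.85, and without lateral replicate 2 it was 1.80. The log2 difference was 0.82 without otic replicate 2, 0.87 without lateral replicate 1 and 1.15 under median centring, while the fit of the 4 fresh arrays and the fits without any 1 of the 4 trigeminal arrays left it at 1.34 with a p above the limit. With FGF2 the log2 difference was 2.98 ± 0.53, or 7.87-fold, with an interval of 1.68 to 4.27 and a limma adjusted p of 0.357, and ranked 21 from the top among 13009 genes. The otic-lateral difference of the same gene ranked 799. All 16 alternative fits kept DUSP6 called higher with FGF2, between 2.47 and 3.26.

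For DUSP6 the untreated culture was the lowest group by a wide margin. From the highest group to the lowest, the order was otic, FGF2-treated trigeminal, lateral and untreated trigeminal ectoderm. The otic and FGF2-treated arrays did not overlap, but their difference was not called (log2 difference, FGF2-treated minus otic, −0.72 ± 0.53, adjusted p 0.853). FGF2-treated and lateral arrays overlapped. Of the 3 steps between neighbours only the last was called. Untreated trigeminal ectoderm was 2.36 ± 0.53 lower than lateral ectoderm on the log2 scale, that is 5.15-fold lower, with a limma adjusted p of 0.173, and it was called lower in all 16 alternatives. Cell markers differed between these groups as well. The sum over 6 neural tube markers, 3 of them called higher in the cultures and 1 lower, was 3925 and 4785 for the untreated cultures and 145 and 244 for the lateral pools. Over 7 mesenchyme markers, 2 of them called lower, it was 2426 and 1452 for the untreated cultures and 6561 and 8149 for the lateral pools. The sum over 5 neural crest markers was 3991 and 5856 for the untreated cultures and 870 and 1354 for the lateral pools. Of these markers 3 were called higher in the cultures, 2 with a limma adjusted p under 0.05, and none lower. Their median log2 difference was 3.30. Over the 9 endothelium and blood markers the sum was 445 and 374 for the untreated cultures and 4679 and 6173 for the lateral pools. Of these, 7 were called lower in the cultures. The part of all these cell types in the DUSP6 difference was not tested.

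DUSP7, the other ERK-selective cytoplasmic phosphatase, stayed near the array median in every group. Its brightest probe set read 26.2 and 56.4 on the otic arrays, against 38.2 and 30.3 on the lateral arrays, and 37.9 and 44.4 with FGF2, against 26.4 and 36.5 without FGF2. The otic values enclosed the lateral ones, and the 2 cultured groups did not overlap but lay close together. The log2 differences were 0.18 ± 0.47, with an interval of −0.97 to 1.32, and 0.40 ± 0.47, with an interval of −0.74 to 1.54, and the FGF2 interval includes a difference as large as that of DUSP4. A second DUSP7 probe set was likewise not called, with log2 differences of −0.29 and 0.34. The dimmest DUSP7 probe set was called higher with FGF2 (1.44) at intensities of 3.2 and 2.3 with FGF2 and 0.9 and 0.7 without FGF2, all of them below the median of their arrays and the untreated ones below the floor of 1.

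Of the nuclear, inducible phosphatases, DUSP4 was called in both comparisons. Its brightest probe set read 1081.7 and 904.2 on the otic arrays, against 414.0 and 342.4 on the lateral arrays. With FGF2 it read 827.7 and 887.4, against 323.5 and 369.2 without FGF2. The replicates of every group lay close together, and both otic and both FGF2-treated values were above every lateral and untreated value.

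DUSP4 was 2.63-fold higher in otic than in lateral ectoderm, a log2 difference of 1.39 ± 0.33 with an interval of 0.59 to 2.20 and a limma adjusted p of 0.341. With FGF2 it was 2.48-fold higher, a log2 difference of 1.31 ± 0.33 with an interval of 0.50 to 2.12 and an adjusted p of 0.587. Both calls held in all 16 alternatives, at 1.17 to 1.53 and at 1.18 to 1.44. A second DUSP4 probe set was called higher in both comparisons too, with 190.3 and 364.2 on the otic arrays, against 81.2 and 80.8 on the lateral arrays (1.70 ± 0.43 on the log2 scale) and 233.7 and 307.0 with FGF2 against 115.6 and 100.5 without FGF2 (1.31 ± 0.43). The remaining DUSP4 probe set was dim on all arrays, at 2.5 to 23.6, and was not called.

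For DUSP4 the untreated culture was not called lower than lateral ectoderm. On the brightest probe set the log2 difference, untreated trigeminal minus lateral, was −0.12 ± 0.33, and the arrays of these groups overlapped. The second probe set gave 0.41 ± 0.43, also not called, with 115.6 and 100.5 on the untreated arrays above 81.2 and 80.8 on the lateral arrays. On the brightest probe set FGF2-treated trigeminal ectoderm differed from otic ectoderm by −0.21 ± 0.33, with an interval of −1.01 to 0.60.

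DUSP5, the nuclear phosphatase selective for ERK, was called with FGF2 and not between the fresh tissues, although the difference between these effects was itself not called (1.16 ± 0.93 on the log2 scale). Its brightest probe set read 310.4 and 223.5 with FGF2, against 87.8 and 38.6 without FGF2, and 212.9 and 238.2 on the otic arrays, against 63.6 and 193.2 on the lateral arrays. The lateral replicates were far apart, and the higher one came close to the otic values.

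The FGF2 difference of DUSP5 was 2.18 ± 0.66 on the log2 scale, or 4.52-fold, with an interval of 0.59 to 3.76 and a limma adjusted p of 0.717, and its rank among all genes was 118. The call was lost without untreated replicate 2 (1.58) and without FGF2-treated replicate 1 (1.94). The otic-lateral difference was 1.02 ± 0.66, or 2.03-fold, with an interval of −0.56 to 2.61 and an adjusted p of 0.744, and was called only without lateral replicate 2 (1.82). A second DUSP5 probe set was below the median of every array, at 0.9 to 4.7. It was called higher with FGF2 (1.65 ± 0.52), at 2.1 and 4.7 with FGF2 and 0.9 and 1.0 without FGF2. Between otic and lateral ectoderm it was not called (0.07 ± 0.52).

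DUSP1, the nuclear phosphatase best known as an immediate early gene of stress and growth factors, was not called in any of the comparisons. It read 107.6 and 232.4 on the otic arrays, against 104.8 and 240.0 on the lateral arrays, and 341.0 and 260.4 with FGF2, against 198.9 and 236.4 without FGF2. The otic and lateral pairs were nearly alike, each with 1 low and 1 high array, while both FGF2-treated values were above both untreated ones. The log2 differences were −0.0042 ± 0.57, with an interval of −1.38 to 1.37, and 0.46 ± 0.57, with an interval of −0.92 to 1.83.

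**Figure D2:**
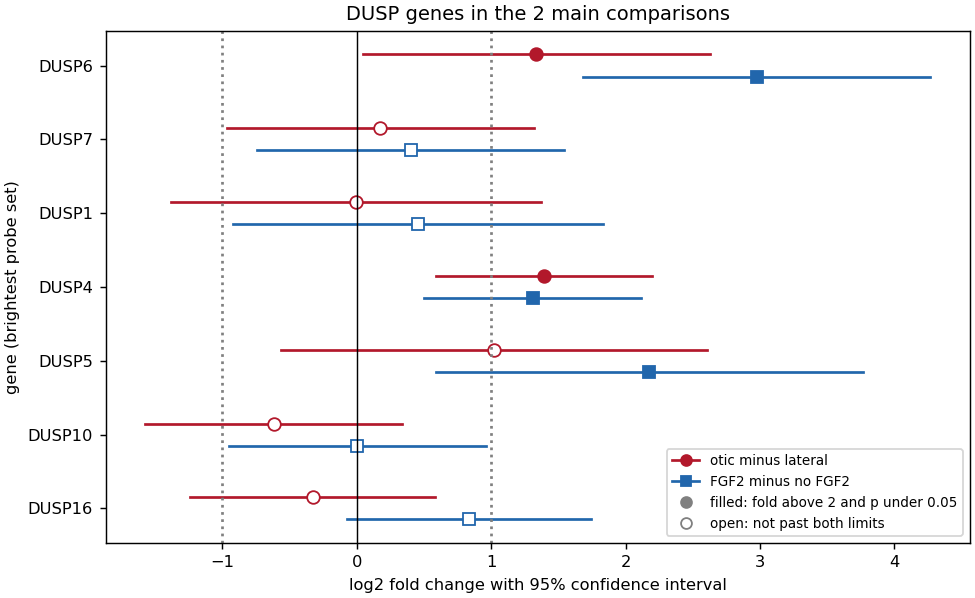
Log2 fold change with its 95% confidence interval for the brightest probe set of each measured DUSP gene, otic minus lateral (circles) and FGF2 minus no FGF2 (squares); filled symbols passed a fold of 2 and an unadjusted p of 0.05, and dotted lines mark a fold of 2. DUSP6 and DUSP4 are filled in both comparisons and DUSP5 with FGF2 only.

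Of the JNK- and p38-selective phosphatases, neither DUSP10 nor the annotated DUSP16 probe sets were called in the main comparisons. DUSP10 read 153.2 and 139.4 on the otic arrays, against 274.1 and 183.7 on the lateral arrays, on its brightest probe set. It read 379.3 and 290.0 with FGF2, against 394.3 and 276.7 without FGF2, so the untreated values enclosed the treated ones. The log2 differences were −0.62 ± 0.40, with an interval of −1.57 to 0.34, and 0.0059 ± 0.40, with an interval of −0.95 to 0.96, neither of them called. Both cultures were called above otic ectoderm for DUSP10. The log2 difference, otic minus untreated trigeminal, was −1.18 ± 0.40 (limma adjusted p 0.454). On their brightest probe sets other members were called the other way, higher in otic than in untreated trigeminal ectoderm. These were DUSP6 (3.70 ± 0.53), DUSP5 (1.95 ± 0.66), DUSP4 (1.52 ± 0.33) and DUSP16 (1.13 ± 0.38). DUSP7 (0.31 ± 0.47) and DUSP1 (−0.46 ± 0.57) were not called there. For that comparison the share of all genes called was not counted and no alternatives were run. Cell markers differed too between FGF2-treated trigeminal and otic ectoderm. There 3 of 5 neural crest and 4 of 6 neural tube markers were called higher, and 4 of 9 endothelium and blood markers lower. Their part was not tested. DUSP10 was the one member called between FGF2-treated trigeminal and otic ectoderm, higher by 1.18 ± 0.40 on the log2 scale with a limma adjusted p of 0.505. In that comparison 3.84% of all genes were called higher and 3.33% lower. That call was lost without either otic replicate and without FGF2-treated replicate 1 (0.99 to 1.25), and with the mean of both DUSP10 probe sets, where the difference was 0.064.

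The level of DUSP16 depended on the probe set. Its brightest probe set under the annotation was above the array median on 3 of 8 arrays, at 20.7 and 32.8 on the otic arrays, against 37.0 and 28.9 on the lateral arrays. With FGF2 it read 20.9 and 21.6, against 11.8 and 12.0 without FGF2. The cultured groups did not overlap, and the FGF2 difference of 0.84 ± 0.38, or 1.79-fold, had an interval of −0.07 to 1.75 and was not called. Untreated trigeminal ectoderm was called lower than lateral ectoderm, by 1.46 ± 0.38 (limma adjusted p 0.223). With DUSP6 this made 2 of 7 members called lower in that comparison and none higher, where 5.11% of all genes were called lower and 6.04% higher. The other DUSP16 probe sets, at 1.4 to 20.3 and 1.3 to 15.3, and a second DUSP10 probe set, at 0.4 to 9.2, lay below the median of every array and were not called in any of these comparisons. After an offset of 32 was added to each intensity the DUSP16 difference was −0.56 and no longer called.

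A further probe set, which only the tables of the study name DUSP16, gave another picture. It read 173.3 and 276.9 on the otic arrays, against 62.9 and 114.2 on the lateral arrays, and 218.4 and 324.8 with FGF2, against 209.1 and 156.5 without FGF2. It was called higher in otic ectoderm by 1.37 ± 0.48 (limma adjusted p 0.531) and was not called with FGF2 (0.56 ± 0.48). With this probe set, DUSP16 joined DUSP6 and DUSP4 among the members called higher in otic ectoderm. Which of these probe sets measures DUSP16 transcripts was not tested, and the direction given for DUSP16 between otic and lateral ectoderm depends on that choice. So does the call against lateral ectoderm: with this probe set, untreated trigeminal minus lateral was 1.09 ± 0.48 and not called, in place of −1.46, which leaves DUSP6 as the 1 member called lower there.

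The response to FGF2 in culture and the difference between the fresh tissues were then set against each other for each gene. On the brightest probe sets, 0 of the 7 members were called for this difference of differences, and limma gave 0 of 7 an unadjusted p under 0.05. Of all genes, 2.24% were called higher and 2.50% lower. The dimmest DUSP7 probe set, at 0.7 to 3.2 over the arrays, was called for it (2.34 ± 0.59, limma adjusted p 0.567). That probe set was also called for untreated trigeminal minus lateral (−1.32) and for FGF2-treated trigeminal minus otic (1.02). For DUSP6 the FGF2 difference exceeded the otic-lateral one by 1.64 ± 0.76 on the log2 scale, with an interval of −0.19 to 3.47 and an adjusted p of 0.854. DUSP5 gave 1.16 ± 0.93 and DUSP16 gave 1.16 ± 0.53. DUSP4 gave −0.08 ± 0.47, with an interval of −1.22 to 1.06, the value nearest to 0 among the members. The count depended on the processing, and it reached 2, DUSP6 and DUSP16, under quantile normalization and under median centring.

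**Figure D3:**
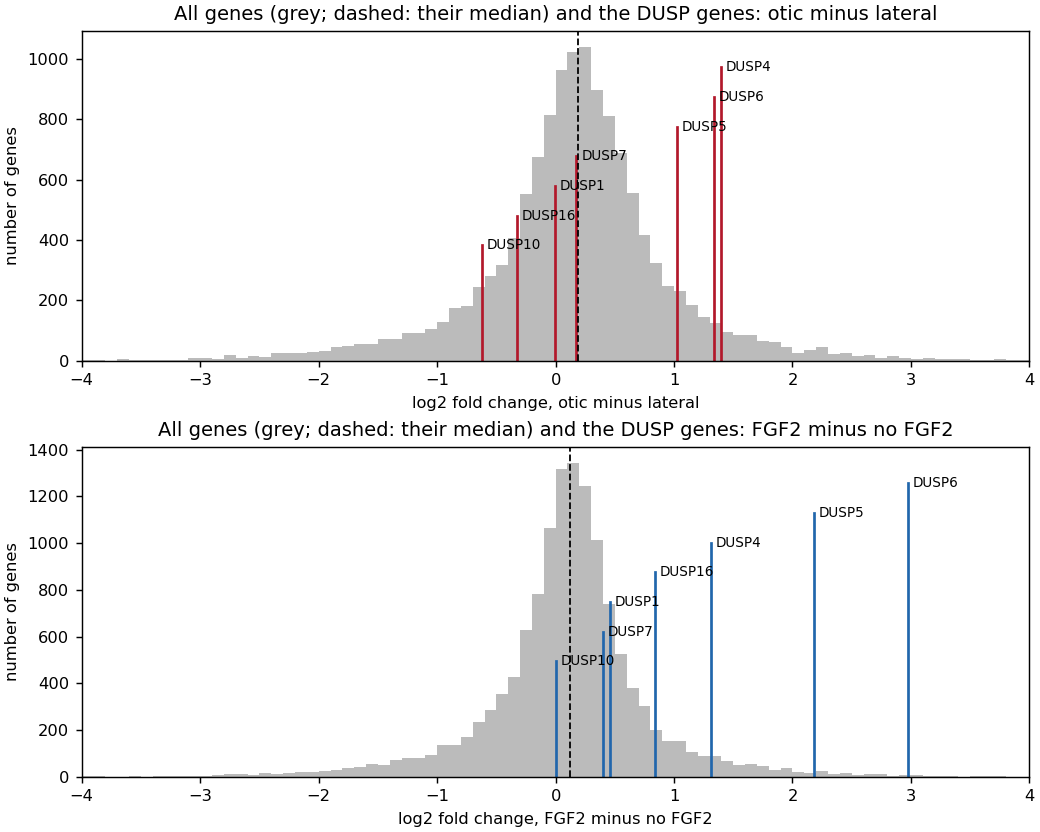
Number of genes per bin of log2 fold change (grey, 13009 genes, dashed line at their median) with the DUSP genes marked by lines whose heights only separate the names, for otic minus lateral (top) and FGF2 minus no FGF2 (bottom). DUSP4, DUSP6 and DUSP5 lie to the right in both panels and the other members nearer the centre.

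Over the 7 members the median log2 difference between otic and lateral ectoderm was 0.18, against 0.19 over all genes. With FGF2 the median was 0.84, against 0.12 over all genes. Most genes were positive there, as their median was above 0, and so were 7 of 7 members, down to 0.0059 for DUSP10. Since all genes together were shifted by 0.19 and 0.12, the same differences relative to the median gene were 1.15 and 2.86 for DUSP6, 1.20 and 1.19 for DUSP4 and 0.83 and 2.06 for DUSP5, the otic-lateral value given first in each case, and the FGF2 value of DUSP10 was then −0.11. Across the 8 arrays, which are 4 pairs of replicates and so share their groups, log2 intensities of DUSP6 correlated with those of DUSP5 at r = 0.80, of DUSP4 at 0.77 and of DUSP16 at 0.75, but with DUSP1 at 0.06 and with DUSP10 at −0.66.

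The genes whose profile over the same 8 arrays was most like each called member were searched among 9543 genes. The top of so large a search over so few arrays gives high r values without any relation, and shared regulation was not tested. For DUSP6 they were NASP (r = 0.97), EIF4H (0.97), DDX19 (0.96), HMGN4 (0.96) and SEMA4G (0.95). For DUSP4 they were HMGB3 (0.99), AP1M1 (0.97), MAP3K2 (0.97), TK1 (0.96) and RRM2 (0.96). For DUSP5 they were FARS2 (0.98), SNAI1 (0.96), CAMKK1 (0.95), CEP131 (0.93) and C3H6ORF163 (0.92).

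Other genes of the pathway were counted from fixed lists. Beside all these counts, 4.86% of all genes were called higher and 2.64% lower for otic against lateral. With FGF2 the shares were 2.14% and 1.48%. Lists of 9 to 22 measured genes can give 0 or 1 call at such shares. Among 15 measured of 21 other dual specificity phosphatases, 0 were called in either direction between otic and lateral ectoderm, and 1, DUSP15, was called higher with FGF2. It read 13.1 and 27.2 with FGF2 and 4.6 and 5.0 without FGF2, below the median of every array. Of 13 MAP kinases, the family that includes the substrates of the DUSP proteins, 9 were measured. MAPK11 (a p38 kinase) was called higher in otic ectoderm by 1.22 ± 0.38. MAPK4 (an atypical ERK-like kinase) was called higher with FGF2 by 1.30 ± 0.45, and none of the 9 was called lower. Of 22 measured of 27 kinases and adaptors that lie upstream of the MAP kinases, 0 were called in either main comparison, with log2 differences between −0.95 and 0.76 for otic minus lateral and between −0.79 and 0.89 with FGF2.

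A list of 16 genes was taken as other inhibitors of FGF signaling, and 15 of them were measured. Besides SPRY and SPRED genes, IL17RD and FGFRL1, it held CBL, RASA1, NF1, LGALS3, PTPN7, PTPRR and PTPN5. Its counts and medians therefore describe a mixed list and not feedback inhibitors alone. There were 4 called higher in otic ectoderm and 4 called higher with FGF2, with none lower and 11 not called in each comparison. In each, 12 of the 15 values were positive, and the lowest was −1.03. The list medians were 0.76 and 0.79, against 0.19 and 0.12 over all genes, most of which were positive as well. SPRY2, which blocks the route from the receptor to ERK, read 883.1 and 1505.5 on the otic arrays, against 222.4 and 247.5 on the lateral arrays, and 1102.3 and 1254.7 with FGF2 against 189.4 and 171.8 without FGF2. Its log2 differences were 2.30 ± 0.39 and 2.70 ± 0.39. SPRY1, of the same family, differed by 4.19 ± 0.62 and 2.75 ± 0.62, and IL17RD, the membrane inhibitor also known as SEF, by 2.11 ± 0.46 and 2.05 ± 0.46. The remaining calls were SPRED1 in otic ectoderm (1.17) and SPRY3 with FGF2 (2.52), which are named here after their values were seen.

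Of 14 measured of 19 transcription factors downstream of ERK, there were 3 called higher in each comparison and none lower. ETV4, a PEA3-family factor induced by FGF signals, read 218.8 and 259.4 on the otic arrays, against 21.8 and 60.4 on the lateral arrays, and 271.0 and 286.0 with FGF2 against 60.1 and 85.5 without FGF2, for log2 differences of 2.71 ± 0.54 and 1.96 ± 0.54. ETV5, of the same family, differed by 1.64 ± 0.35 and 1.02 ± 0.35. ELK3, a ternary complex factor that ERK phosphorylates, was called with FGF2 (1.24 ± 0.35) and not in otic ectoderm (0.16 ± 0.35), a gap of 1.08 ± 0.50 that was itself not called. The remaining otic call was ETV1 (1.03), again named after its value was seen. With FGF2 14 of 14 measured factors had a positive value, with a list median of 0.33 against 0.12 over all genes. Most genes were positive there as well, and the highest value of the list, 2.53, was not called. For otic minus lateral 7 of the 14 were positive, with a median of 0.06 against 0.19 over all genes.

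**Figure D4:**
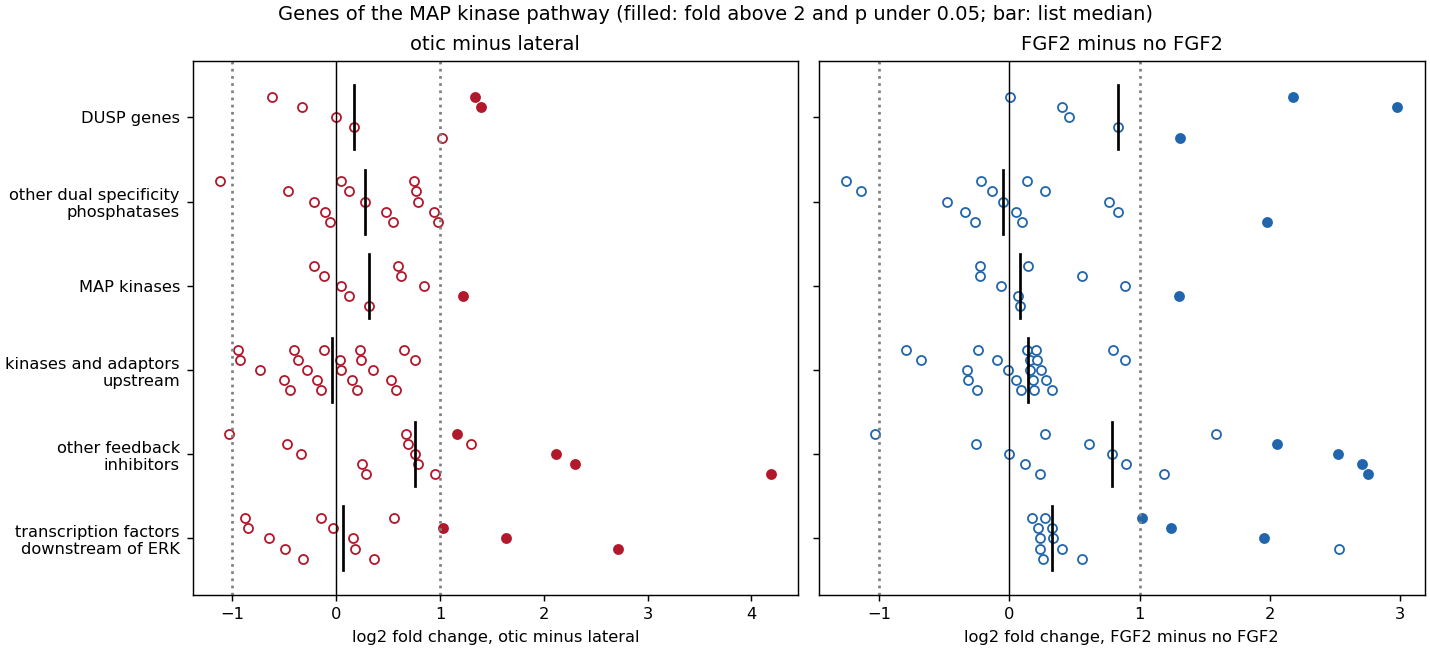
Log2 fold change of each measured gene in 6 lists, the DUSP genes at the top, for otic minus lateral (left) and FGF2 minus no FGF2 (right). Filled points passed a fold of 2 and an unadjusted p of 0.05, black bars are list medians and dotted lines mark a fold of 2; no point left of the lower fold limit is filled.

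Genes that flank the members in the RefSeq annotation of the chicken assembly GRCg7b were examined for the same comparisons. KITLG, the gene before DUSP6 and the ligand of the receptor KIT, was called lower with FGF2, by 1.63 ± 0.55 on the log2 scale, where DUSP6 was called higher. POC1B, on the other side of DUSP6, differed by 0.63 ± 0.43 and was not called. No other measured neighbour of a member was called in either main comparison, and 2 neighbours had no matching probe set.

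**Figure D5:**
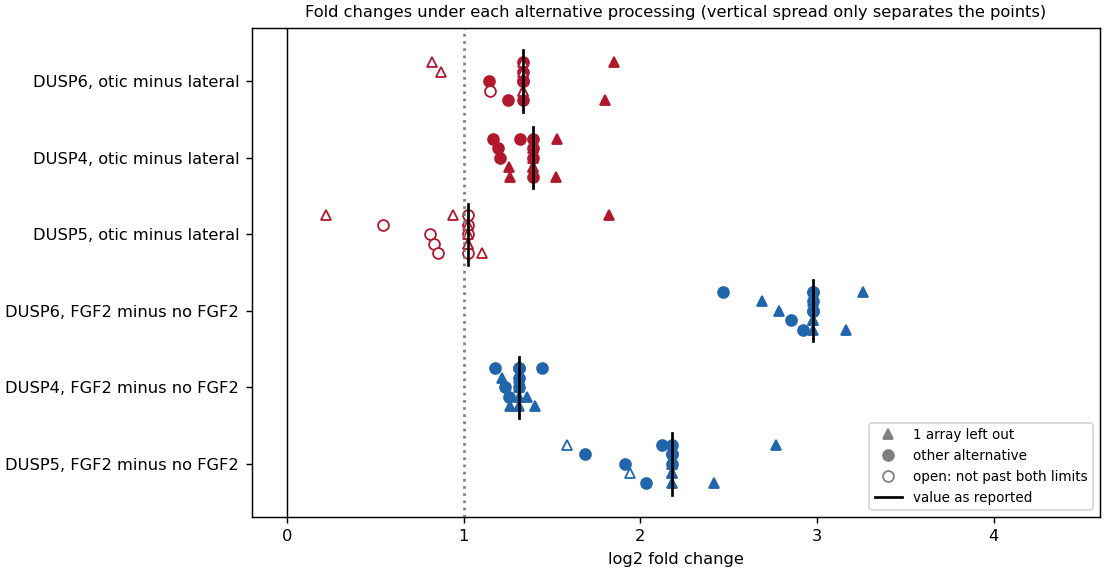
Log2 fold change of DUSP6, DUSP4 and DUSP5 under each alternative, otic minus lateral (red) and FGF2 minus no FGF2 (blue). Triangles leave out 1 array, circles change another setting, open symbols did not pass both limits and black lines are the values as reported; DUSP4 is filled throughout in both comparisons and DUSP6 throughout with FGF2.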

How the data were processed

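RNA of otic, lateral and trigeminal ectoderm was hybridised to 8 GeneChip Chicken Genome arrays. The authors deposited 1 intensity per probe set and array on a linear scale. Their summary, background and scaling steps (not given in the sources used here) could not be checked; limma is the 1 tool that the submitters' processing notes name. Intensities under 1 were set to 1 and log2 was taken, without scaling between arrays or a filter on dim probe sets. From 38535 probe sets, 96 controls were left out. Of the rest, 27168 carried 1 gene symbol in the platform annotation, 177 several and 11094 none. Groups were compared with lmFit and eBayes in limma 3.58.1 (R 4.3.3), fitting each group's mean on all 8 arrays (4 residual degrees of freedom). All tests were two-sided, and p-values were adjusted by Benjamini-Hochberg over all 38439 probe sets. A gene took the probe set with the highest mean log2 intensity. Calls needed a fold above 2 and an unadjusted p under 0.05. Replicates are pools that the labels number separately, so p-values measure the spread between these pools, which may be partly technical, and 2 arrays a group limit the precision. Every member is named. From each other list the genes named were at most 3 called ones with the highest absolute limma statistic, apart from those said to be added, and 5 genes were named per likeness search. The members and the lists were chosen with earlier results of these data known. The fits were run on simulated data, where known log2 changes had to be recovered on average. That run set no check on the rate of false calls.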

Additional observations from a re-analysis of the deposited data

How the results depend on the processing

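With 2 arrays a group, no DUSP gene had a limma adjusted p under 0.05 in the fits as reported, and dim probe sets carry little. Elsewhere on the array 17 probe sets passed that limit for untreated trigeminal against lateral ectoderm, and 1 for FGF2-treated trigeminal against otic ectoderm. DUSP6 reached a limma adjusted p of 0.033 against lateral ectoderm, in untreated trigeminal ectoderm, when a variance trend was fitted. The count of DUSP genes called between otic and lateral ectoderm was 2, and it was 1 (DUSP4) under median centring, in a fit of the 4 arrays of the comparison and at p under 0.01; it was 1 to 3 when 1 array was left out. DUSP6 lost that call without any of the 4 trigeminal arrays, at an unchanged log2 value of 1.34. The count with FGF2 was 3, but 2 (DUSP6 and DUSP4) at p under 0.01, and 2 to 3 with 1 array left out. For the difference of both effects the count was 0, but it was 2 under quantile normalization, median centring and without dim probe sets, and 1 with a variance trend, with a replicate block and with the mean of all probe sets of a gene (0 to 2 with 1 array left out). Deviations of same-numbered arrays correlated at −0.02 to 0.03 over all probe sets and at −0.08 to 0.08 over those above the median. Such values cannot settle whether same-numbered pools shared a batch. The replicate block gave 1 call for the difference of both effects, DUSP6, and changed no other count. It lowered the SE of the DUSP6 otic-lateral difference from 0.53 to 0.36 and raised that of DUSP5 from 0.66 to 0.71. The alternatives for untreated trigeminal against lateral and for FGF2-treated trigeminal against otic ectoderm were added after seeing the data. There the first count was 2, but 1 (DUSP6) with an offset of 32, with the mean of all probe sets and with the other DUSP16 probe set, and 2 to 3 with 1 array left out. The second was 1, but 0 with the mean of all probe sets and at p under 0.01, and 0 to 1 with 1 array left out. Reversals were limited to uncalled values and to DUSP16. For otic minus lateral, DUSP7 was −0.043 under quantile normalization, −0.013 under median centring and −0.34 with the mean of all probe sets, where DUSP10 was 0.25 and DUSP16 was 0.16. For FGF2, DUSP10 was −0.13, −0.050 and −0.77 in the same 3 settings. With the other DUSP16 probe set, DUSP16 was 1.37 for otic minus lateral, where it was called higher beside DUSP6 and DUSP4. With that probe set it was 1.09 for untreated trigeminal minus lateral and 0.28 for FGF2-treated trigeminal minus otic. The last of these differences was 0.13 for DUSP4 with the mean of all probe sets. With 1 array left out, DUSP7 ranged over −0.38 to 0.73, DUSP1 over −0.60 to 0.59 and DUSP16 over −0.66 to 0.0044 for otic minus lateral, and DUSP10 over −0.25 to 0.26 with FGF2. For untreated trigeminal minus lateral, DUSP7 ranged over −0.37 to 0.10, DUSP1 over −0.15 to 1.05 and DUSP4 over −0.26 to 0.013. For FGF2-treated trigeminal minus otic, DUSP7 ranged over −0.46 to 0.65, DUSP5 over −0.011 to 0.46 and DUSP16 over −0.63 to 0.038.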
